A study of Mus musculus with 12 samples.

Results

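The genes described here encode proteins of DNA replication, DNA repair and the cell cycle, measured in the hippocampus of 12 mice. They were chosen by symbol, by the name stems of the replication and repair families (such as Rad, Mcm, Ercc and Fanc), of cyclins, of cyclin-dependent kinases and of Cdc genes, and by 12 further symbols such as Atm, Pcna and H2afx. Cdkn1a was left out by that rule. The rule found 38 of the 770 genes on the panel, with no use of their values. The groups were mtOGG1 females, control females, mtOGG1 males and control males, with 3 mice in each, all of background strain C57BL6/J, 13 months old, group housed and fed freely. By the title of the series, mtOGG1 mice express OGG1, a glycosylase that removes oxidised guanine from DNA, in mitochondria. The promoter and cell types of the transgene are not given in the sources used here. Total RNA was read with the nCounter assay, which counts barcoded probes bound to each transcript without amplification.

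Cells copy their DNA in S phase. The MCM helicase is loaded at origins, is switched on by the kinase made from Cdc7, and opens the helix for polymerases held on the DNA by the PCNA ring. Damaged or stalled DNA activates the kinases ATM and ATR, which halt the cycle through the checkpoint kinases CHK1 and CHK2 while repair takes place. Most cells of an adult hippocampus, neurons above all, have left the cell cycle. Proliferation continues in progenitors of the dentate gyrus, oligodendrocyte precursors, microglia and vessel cells, while excision repair and break signalling are also used by cells that do not divide.

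Each mouse yielded 281838 to 418467 counts over genes that exceeded the lower limit of the table. Low values had been replaced by 20, referred to here as the floor, and the lowest value that could be read above it differed between mice, from 20.1 in mtOGG1 male 3 to 25.4 in control female 1. Control female 3 and control male 2 had 168 and 166 panel genes at the floor, against 181 to 206 in the other mice. All 9 neuron markers on the panel exceeded the floor in every mouse, and all 5 lymphocyte markers stood at it in every mouse. The marker lists held no gene that sets the hippocampus apart from neighbouring tissue. Ttr, made by choroid plexus, ranged from 20 to 1525 normalized counts, and Slc17a6, a glutamate transporter of neurons below the cortex, from 195 to 1597. In such tissue RNA, fewer cells of a type and less RNA per cell cannot be told apart.

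Of the 38 genes, 27 exceeded the floor in all 12 mice, 2 in some, 3 in 1 mouse and 6 in none. Genes at 20 throughout included Brca1 and Rad51b of homologous recombination, the resection nuclease gene Exo1, Pole, which encodes the catalytic subunit of a leading-strand polymerase, and Fancd2 of the Fanconi anaemia pathway. Among all panel genes 17% were at the floor in every mouse, against 15.8% of these 38. Bard1, the partner of Brca1, and the checkpoint kinase genes Chek1 and Chek2 were read in control female 3 alone, at 26.0, 23.8 and 24.9. Of these 3 values, those of Chek1 and Chek2 lay below the lowest value that could be read in control female 1. Blm, a helicase gene of recombination, was read in 10 mice and Mcm2 in 9. Values at the floor were spread over the 4 groups, with 29 of 114 values at the floor in mtOGG1 females, 27 in control females, 27 in mtOGG1 males and 27 in control males. Genotype differences in the 9 genes read in 1 mouse or none were not detectable at this depth. Expression below the floor is not shown by these values.

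**Figure D1:**
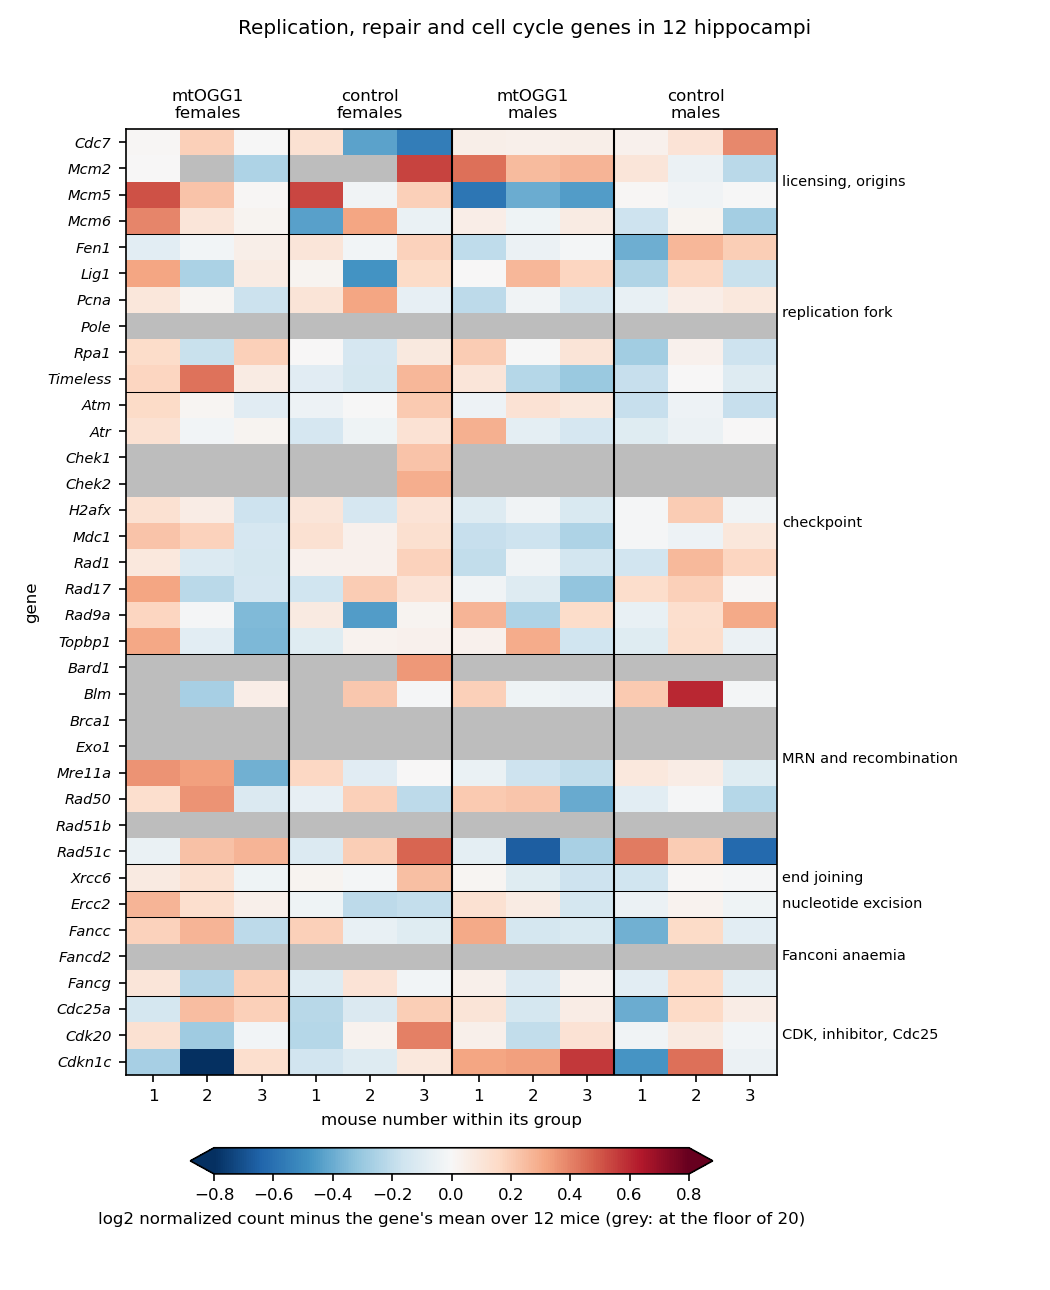
Each row is a gene, grouped by role, and each column a mouse. Colour gives the log2 normalized count minus the gene's mean over 12 mice, floor values included, and grey marks values at the floor of 20. The map shows 36 of the 38 genes, the 5 rows that are grey throughout are genes at the floor in all mice, and the 3 mtOGG1 males are the lowest mice for Mcm5.

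The first comparison asked whether mtOGG1 mice differed from control mice over both sexes. None of the 29 genes read in at least 3 mice passed an adjusted p of 0.05 (limma with Benjamini-Hochberg adjustment over the 608 panel genes tested), where 8 panel genes (1.32%) did. None had an unadjusted p under 0.05 either, against 71 panel genes (11.7%). Their log2 fold changes lay between -0.22 and 0.19, with 16 above 0, 13 below and a median of 0.0135. All 608 tested genes had a median of -0.0086. The 95% intervals of all 29 stayed within a 1.5-fold difference in either direction, reaching from -0.54 at the lowest, for Rad51c, to 0.48 at the highest, for Lig1. For 543 of the 608 tested genes the interval stayed within that bound. Among the 29, Blm was read in 10 mice and Mcm2 in 9, and values at the floor shrink the differences of such genes. No gene of the 29 had mtOGG1 values all above or all below the control values, against 0 panel genes (0%) higher throughout and 5 (0.822%) lower throughout. The genes with the smallest p were Ercc2, Mcm5, Rad1, Rpa1 and Pcna.

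**Figure D2:**
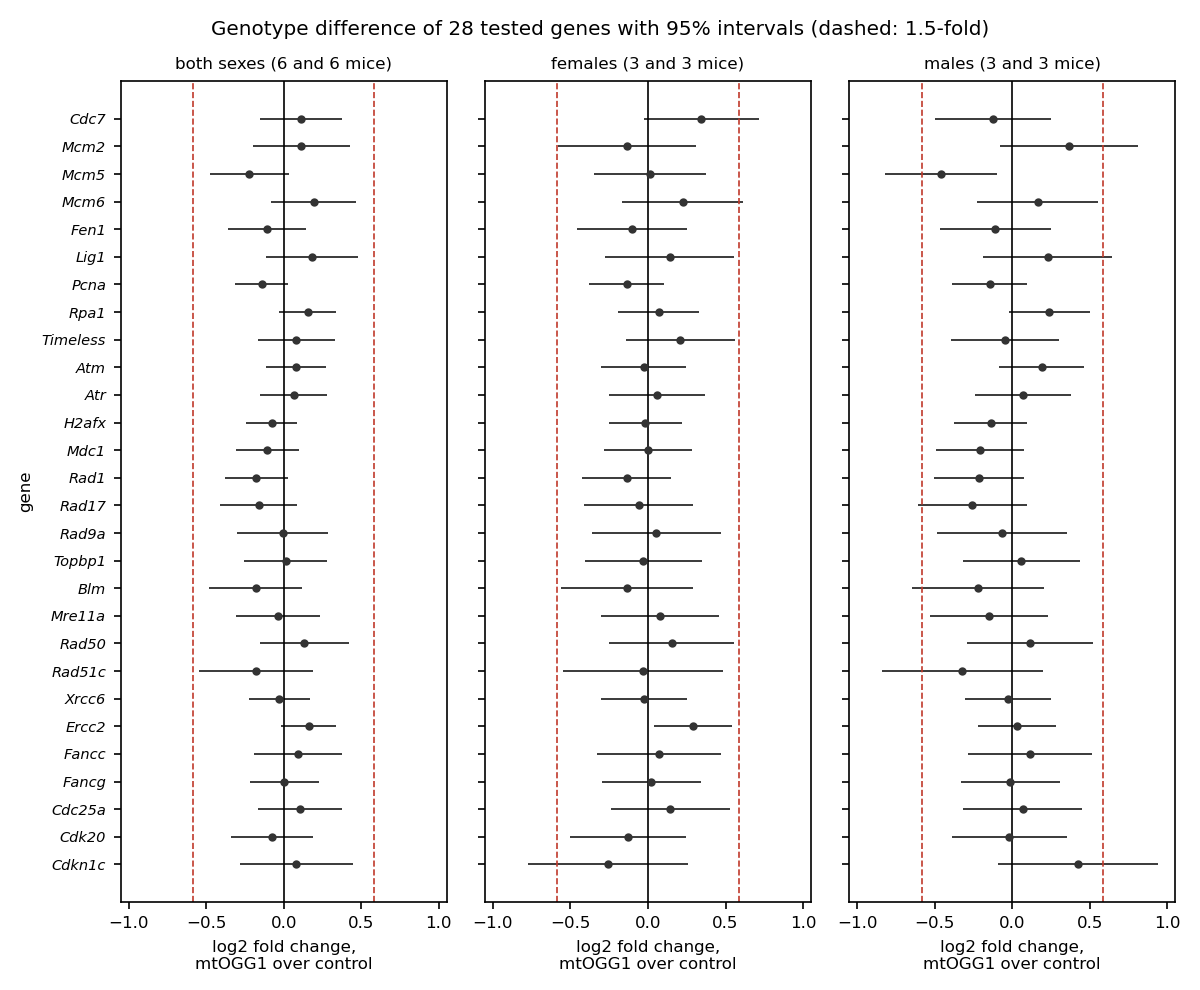
Points are log2 fold changes, mtOGG1 over control, of 28 of the 29 tested genes, and bars are 95% intervals from the limma fit, over both sexes (left), in females (middle) and in males (right). Dashed lines mark a 1.5-fold difference. All 28 intervals shown over both sexes stay inside the dashed lines, whereas 25 do in females and 21 in males.

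The 4 genes of replication licensing and origin firing gave 3 log2 fold changes above 0 and 1 below, and none passed. Mcm5 encodes a subunit of the MCM helicase. It stood at 76.1, 62.6 and 53.7 normalized counts in mtOGG1 females, 77.4, 52.5 and 61.1 in control females, 35.8, 40.5 and 39.3 in mtOGG1 males, and 53.9, 52.6 and 53.3 in control males. The 3 mtOGG1 males were the lowest of the 12 mice, and the female groups overlapped fully. Its log2 fold change over both sexes was -0.22 with a standard error of 0.12 (adjusted p = 0.502, limma). Mcm2, another subunit, was read at 25.7, 20 and 21.7 in mtOGG1 females, 20, 20 and 37.3 in control females, 34.9, 30.7 and 31.1 in mtOGG1 males and 27.5, 24.9 and 22.1 in control males. Here the mtOGG1 males lay above the control males, while control female 3 was the highest mouse of all, and 3 of the 12 values were at the floor. The log2 fold change was 0.11 over both sexes (adjusted p = 0.806, limma). Mcm6, the third subunit on the panel, ranged from 43.5 to 58.5 in mtOGG1 mice and from 33.0 to 55.5 in control mice, at a log2 difference of 0.19 (adjusted p = 0.580, limma). Cdc7, the kinase that starts origins, was at 55.0, 62.6 and 54.7 in mtOGG1 females, 59.6, 40.7 and 37.3 in control females, 56.6, 56.4 and 56.7 in mtOGG1 males and 55.9, 59.0 and 71.4 in control males. Control females had the widest range for Cdc7, and its log2 fold change was 0.11 (adjusted p = 0.766, limma). Leaving out 1 mouse moved Mcm6 between 0.101 and 0.284, Cdc7 between 0.0443 and 0.21 and Mcm2 between 0.042 and 0.259.

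The promoters of the 3 helicase subunit genes are shown because their products act in 1 complex, while their male values differed in sign. In males the log2 fold change was -0.46 for Mcm5, 0.36 for Mcm2 and 0.16 for Mcm6, and none passed. Each sequence is the 250 bases before the start of the gene in RefSeq (GRCm38.p6), in the direction of the gene, and capitals mark words of the E2F family, transcription factors that switch on S phase genes. The words searched on both strands were TTTCCCGC, TTTGCCGC, TTTCGCGC and TTTGGCGC. Mcm2 is at chr6:88898781-88899030 on the minus strand, Mcm5 at chr8:75109259-75109508 on the plus strand and Mcm6 at chr1:128359706-128359955 on the minus strand.
Mcm2: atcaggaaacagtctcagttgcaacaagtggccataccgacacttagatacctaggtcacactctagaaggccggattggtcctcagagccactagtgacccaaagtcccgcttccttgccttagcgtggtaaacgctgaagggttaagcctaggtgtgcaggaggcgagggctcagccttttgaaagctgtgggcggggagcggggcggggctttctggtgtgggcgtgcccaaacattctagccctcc
Mcm5: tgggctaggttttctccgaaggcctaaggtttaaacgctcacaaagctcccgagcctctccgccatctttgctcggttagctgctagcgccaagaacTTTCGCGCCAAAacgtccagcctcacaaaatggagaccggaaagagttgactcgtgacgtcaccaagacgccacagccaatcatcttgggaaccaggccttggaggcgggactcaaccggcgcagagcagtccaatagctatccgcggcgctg
Mcm6: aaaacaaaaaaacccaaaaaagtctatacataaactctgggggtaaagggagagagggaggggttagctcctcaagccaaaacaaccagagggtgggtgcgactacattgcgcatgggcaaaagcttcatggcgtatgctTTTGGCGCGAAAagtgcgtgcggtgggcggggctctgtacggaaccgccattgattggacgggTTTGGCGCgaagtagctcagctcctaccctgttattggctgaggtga
The Mcm5 window held 2 overlapping matches, which begin 153 and 149 bases before the start. The Mcm6 window held 3, beginning 110, 106 and 47 bases before it, the first 2 of them overlapping. No word was found in this window of Mcm2. Promoters of 29 of the 38 genes were in the RefSeq table, and 9 of these 29 (31%) held such a word, namely Bard1, Cdc25a, Chek2, Fancg, Mcm5, Mcm6, Mdc1, Topbp1 and Xrcc6. The share was 2.16% of all 27025 genes with a promoter in that table, 2.72% of protein-coding genes and 3.5% of the panel's other genes. The CCAAT word, bound by the factor NF-Y in many cell cycle promoters, was in 51.7% of the 29 and 37.5% of all genes. The word TTTGAA, known as the cell cycle homology region, was in 13.8% of the 29 and 18.3% of all genes. A match is a string of letters and no measured binding site. A link between these words and the expression values was not tested.

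Genes of the replication fork had log2 fold changes between -0.14 and 0.18, and none of the 5 tested passed. Pcna, the sliding ring, had values of 584, 554 and 485 in mtOGG1 females, 587, 681 and 523 in control females, 474, 538 and 502 in mtOGG1 males and 525, 567 and 581 in control males. The groups overlapped in each sex. Its log2 fold change was -0.14 with a standard error of 0.08 (adjusted p = 0.514, limma). Rpa1, the large subunit of the protein that coats single-stranded DNA, had 459, 365 and 471 in mtOGG1 females, 415, 377 and 437 in control females, 476, 413 and 445 in mtOGG1 males and 342, 423 and 368 in control males. Control male 2 lay within the range of the mtOGG1 males, and the log2 fold change was 0.15 with a standard error of 0.09 (adjusted p = 0.514, limma). Lig1, which seals nicks between Okazaki fragments, had a log2 fold change of 0.18, Fen1, the flap nuclease, -0.11, and Timeless, of the fork protection complex, 0.08. Leaving out 1 mouse moved Lig1 between 0.0905 and 0.256 and Fen1 between -0.208 and -0.046.

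Genes of checkpoint signalling gave 3 log2 fold changes above 0 and 5 below, between -0.18 and 0.08. The lowest belonged to Rad1, a subunit of the checkpoint clamp, with 152, 133 and 130 in mtOGG1 females, 147, 147 and 163 in control females, 125, 140 and 130 in mtOGG1 males and 129, 171 and 162 in control males. Values overlapped in both sexes, with a standard error of 0.09 (adjusted p = 0.503, limma). Rad17, which helps to load the clamp, had a log2 fold change of -0.16 and Mdc1, a scaffold at breaks, one of -0.11. H2afx encodes the histone variant phosphorylated around breaks, and its values were 474 to 580 in mtOGG1 mice and 485 to 612 in control mice. The kinase genes Atm and Atr had log2 fold changes of 0.08 and 0.06, the clamp subunit gene Rad9a one of -0.0064, and Topbp1, the activator of ATR, one of 0.0135.

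Among the repair genes, Ercc2 had the smallest p of all 29 genes. It encodes a helicase of the transcription factor TFIIH that opens DNA in nucleotide excision repair. Its values were 222, 202 and 189 in mtOGG1 females, 180, 160 and 162 in control females, 201, 193 and 167 in mtOGG1 males and 179, 188 and 180 in control males. All mtOGG1 females lay above all control females, and the male groups overlapped. The log2 fold change over both sexes was 0.16 with a standard error of 0.08 (adjusted p = 0.469, limma). Mre11a and Rad50, whose products hold and trim broken ends, had log2 fold changes of -0.04 and 0.13, and the recombination genes Rad51c and Blm of -0.18 each. Fancc and Fancg, of the core complex of the Fanconi anaemia pathway, had log2 fold changes of 0.09 and 0.0045, and Xrcc6, which encodes the Ku70 subunit that binds ends for joining, one of -0.03.

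Cyclins were not among the genes found by the rule, and the cell cycle regulators among them were Cdc25a, Cdk20 and Cdkn1c. Cdc25a, a phosphatase that activates cyclin-dependent kinases, had a log2 fold change of 0.10, and Cdk20, a kinase also known from cilia, one of -0.07. Cdkn1c encodes an inhibitor of cyclin-dependent kinases. Its values were 65.5, 44.4 and 86.7 in mtOGG1 females, 71.0, 73.4 and 83.7 in control females, 98.0, 98.9 and 117 in mtOGG1 males and 57.0, 107 and 76.3 in control males. The mtOGG1 males were high as a group, and control male 2 lay among them. The log2 fold change was 0.08 over both sexes (adjusted p = 0.888, limma), -0.26 in females and 0.42 in males (adjusted p = 0.468, limma), with a difference between them of -0.68 and a 95% interval from -1.41 to 0.04 (adjusted p = 0.932, limma). Ttr stood beside it at 46.8, 54.6 and 826 in mtOGG1 females, 20, 66.4 and 1187 in control females, 1173, 1361 and 1525 in mtOGG1 males and 35.6, 1510 and 336 in control males. In each of the 4 groups the mouse with the most Ttr also had the most Cdkn1c. The same held for the mouse with the most Slc17a6 in control females, mtOGG1 females and control males. In mtOGG1 males it did not, where Slc17a6 was highest in mouse 1 and Cdkn1c in mouse 3. With Ttr as a covariate, added after seeing the data, the Cdkn1c value was 0.16 in males and -0.43 for the difference between the sexes. With Slc17a6 as a covariate instead, the Cdkn1c values were 0.15 and -0.56, so that the male value shrank about as far with either gene. The part of choroid plexus RNA in these values was not tested beyond the Ttr fit.

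**Figure D3:**
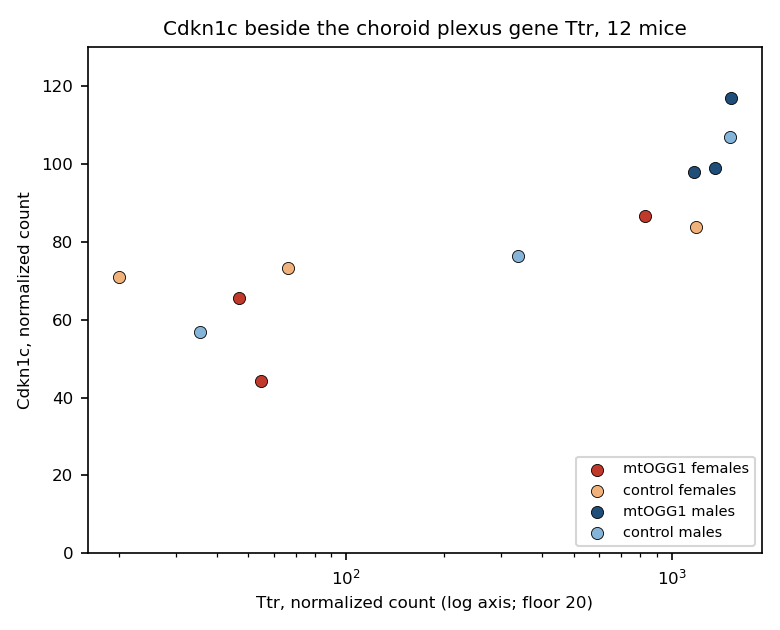
Each point is a mouse, with the Ttr value on a log axis across and the Cdkn1c value up, both in normalized counts. The 6 mice with the most Ttr, from 826 to 1525, have Cdkn1c values from 83.7 to 117, and the other 6 have values from 44.4 to 76.3.

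Within females none of the 29 genes passed, as was true of all 608 panel genes (0%), and 1 had an unadjusted p under 0.05, against 18 panel genes (2.96%). That gene was Ercc2, with a log2 fold change of 0.29 and a 95% interval from 0.04 to 0.54 (adjusted p = 1, limma). It was also the only one of the 29 whose mtOGG1 females were all above the control females, against 11 panel genes (1.81%), and no gene of the 29 was lower throughout, against 21 panel genes (3.45%). The next genes by p were Cdc7 at 0.34, Timeless at 0.21, Mcm6 at 0.22 and Pcna at -0.14. The Cdc7 value was 0.545 without control female 1 and 0.214 without control female 3. Leaving out each mouse in turn moved Mcm6 between 0.04 and 0.41, Timeless between 0.11 and 0.33 and Pcna between -0.229 and -0.0383. The median over the 29 genes was 0.0136, with 15 above 0 and 14 below.

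Within males none of the 29 genes passed, whereas 6 panel genes did (0.987%). Mcm5 was the only one with an unadjusted p under 0.05, against 81 panel genes (13.3%), and its log2 fold change was -0.46 with a 95% interval from -0.82 to -0.10 (adjusted p = 0.210, limma). The mtOGG1 males were all below the control males for 3 of the 29 genes (10.3%), Mcm5, Mdc1 and Rad17, a share near that of the panel (12%). For Mcm2 alone they were all above, at a log2 fold change of 0.36 (adjusted p = 0.468, limma), against 35 panel genes (5.76%). Rpa1 had a value of 0.24, Cdkn1c 0.42 and Rad1 -0.21, and the Cdkn1c value was 0.205 without control male 1 and 0.653 without control male 2. The 29 genes had a median of -0.0197, with 13 above 0 and 16 below, where all tested genes had a median of -0.0216. E2f1, the transcription factor gene at the start of S phase, had 32.1, 57.3 and 45.7 in mtOGG1 males and 62.1, 60.9 and 68.9 in control males, a log2 difference of -0.53 (adjusted p = 0.264, limma). In females E2f1 stood at 78.4, 53.45 and 49.96 in mtOGG1 mice and 58.4, 48.6 and 46.4 in control mice, a log2 difference of 0.22 (adjusted p = 1, limma). The E2f1 difference in females minus that in males was 0.75 (unadjusted p = 0.0253 and adjusted p = 0.932, limma). E2f1 was 1 of 3 tested genes on a list of further proliferation genes. The others, Myc and Top2a, had differences between the sexes of -0.25 and -0.04, and male values of 0.15 and -0.0077. Several markers differed in the same mice. Ttr was at 1173 or more in all mtOGG1 males and in 1 control male, and Slc17a6 stood at 1597, 403 and 1230 in mtOGG1 males and 222, 726 and 286 in control males. The 6 endothelial markers summed to 617 to 702 in mtOGG1 males and 809 to 928 in control males, and the 7 microglia markers to 1773 to 1844 in mtOGG1 males and 1466 to 1742 in control males, without overlap for either list. The 9 oligodendrocyte markers summed to 16147 to 22852 in mtOGG1 males and 11916 to 16240 in control males, and the 9 neuron markers to 13940 to 19429 in mtOGG1 males and 15521 to 16242 in control males, with overlap. The part of these cell types in the male values was not tested. With Slc17a6 as a covariate the male values were -0.315 for Mcm5, 0.118 for Rpa1, 0.151 for Cdkn1c, 0.165 for Mcm2 and -0.248 for Rad1.

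A further contrast took the genotype difference in females minus that in males. None of the 29 genes passed, as was true of all 608 (0%), and none had an unadjusted p under 0.05, against 29 panel genes (4.77%). The smallest p belonged to Cdkn1c, given above, Mcm5 at 0.47 (95% interval from -0.04 to 0.98), Cdc7 at 0.47 (from -0.06 to 0.998), Mcm2 at -0.50 (from -1.13 to 0.13, and -0.212 without control female 3) and Ercc2 at 0.26 (from -0.09 to 0.61). The values of Mcm5 in males and of Ercc2 in females are therefore not shown to be particular to those sexes. For 26 of the 29 genes the interval of the difference stayed within 2-fold, and for 9 within 1.5-fold.

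**Figure D4:**
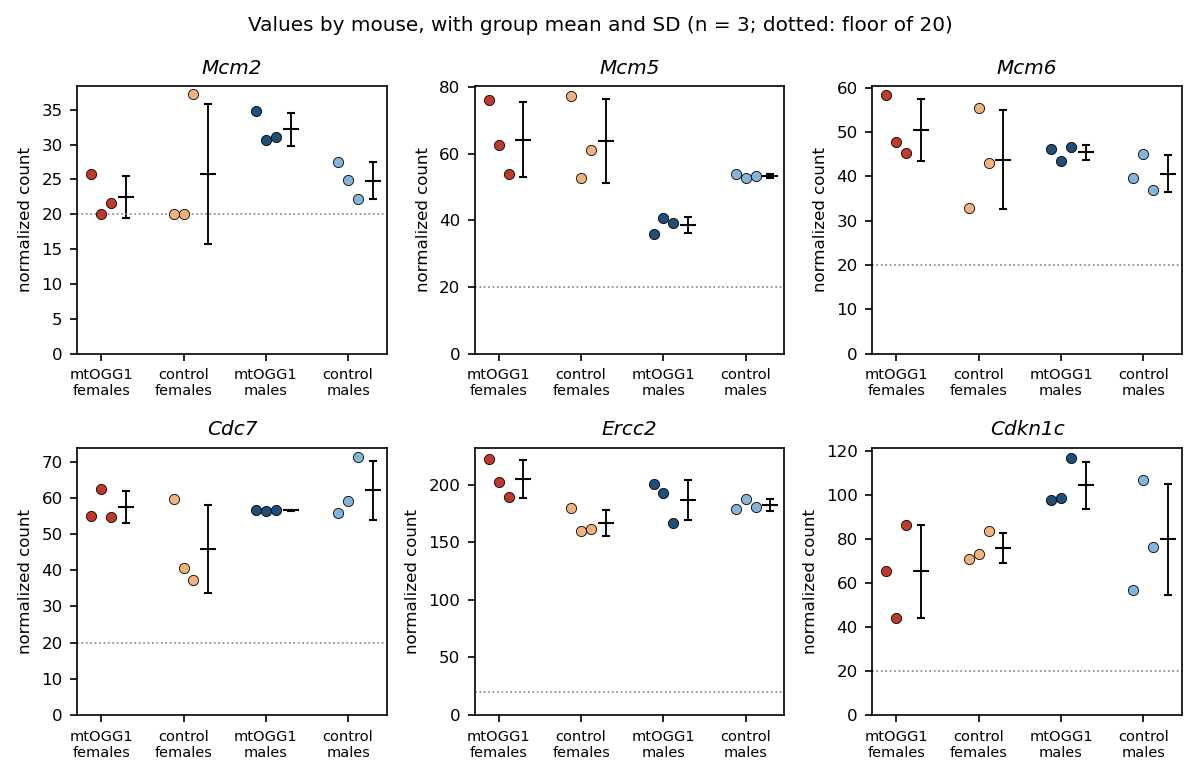
Each point is a mouse, and the bar beside each group is its mean with SD (n = 3), in normalized counts, for Mcm2, Mcm5, Mcm6, Cdc7, Ercc2 and Cdkn1c. The dotted line is the floor of 20. The 3 mtOGG1 males lie from 35.8 to 40.5 for Mcm5, below the other 9 mice.

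The last comparison set females against males over both genotypes. None of the 29 genes passed, whereas 4 panel genes did (0.658%), and 2 had an unadjusted p under 0.05, against 39 panel genes (6.41%). Mcm5 came nearest to the threshold. Its lowest, median and highest values were 52.5, 61.8 and 77.4 in females and 35.8, 46.5 and 53.9 in males. Control female 2 and mtOGG1 female 3 lay within the range of the males. Group means of Mcm5 were 64.1 and 38.5 in mtOGG1 females and males, and 63.7 and 53.3 in control females and males. No gene of the 29 had all 6 females above or below all 6 males, against 1 panel gene higher (0.164%) and 3 lower (0.493%). For Mcm5 the log2 fold change, females over males, was 0.47 with a standard error of 0.12 and a 95% interval from 0.22 to 0.73 (unadjusted p = 0.00137 and adjusted p = 0.118, limma). In mtOGG1 mice all females lay above all males for Mcm5, Mdc1 and Rad51c, against 35 panel genes (5.76%), and below them for Cdkn1c and Mcm2, against 17 panel genes (2.8%). In control mice no gene of the 29 was separated by sex, against 40 panel genes (6.58%) higher and 15 (2.47%) lower in females. Eomes, a gene of intermediate neural progenitors, was read in 5 mice, at 25.7 and 47.8 in mtOGG1 females, 50.7 and 29.4 in control females and 36.9 in a control male. Top2a, a topoisomerase gene of dividing cells, was read in 3, at 30.7 in an mtOGG1 female, 34.3 in a control female and 20.3 in a control male. The part of dividing progenitors in the Mcm5 values was not tested. The second gene under that p was Cdkn1c at -0.37 (adjusted p = 0.769, limma), followed by Blm at -0.29, Timeless at 0.23 and Mdc1 at 0.18. With Ttr as a covariate the value was -0.11 for Cdkn1c, -0.145 for Blm, 0.38 for Mcm5, 0.28 for Timeless and 0.14 for Mdc1.

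The spread between mice was set against counting error. Over the 27 genes read in every mouse, mean counts ranged from 33.3 for Rad51c to 546 for Pcna, and 18 were under 100. The SD between mice of a group had a median of 0.19 on the log2 scale, and the SD that counting alone would give had a median of 0.17. The ratio of the first to the second had a median of 1.19 and was under 1 for 8 of the 27 (29.6%), with the lowest value, 0.717, for Mdc1. Other panel genes with mean counts up to the same height had a median ratio of 1.5, and 14.9% of them were under 1. Of these 369 genes, 143 had mean counts under 100, against 18 of the 27. The sets were therefore not matched for counts, on which the counting SD depends, and the part of this in the lower ratio was not tested. Ratios near 2 included those of Pcna (2.12), Rpa1 (2.06), Cdkn1c (2.05) and H2afx (1.96). For Mcm5 the ratio was 0.973, pooled over the 4 groups. The Mcm5 SD was 11.25 normalized counts in mtOGG1 females, 12.62 in control females, 2.44 in mtOGG1 males and 0.68 in control males. The SDs were thus smaller in the male groups than in the female groups. For Mcm5, counting alone would give an SD of 0.20 on the log2 scale. Its recovered counts were 38, 41 and 43 in mtOGG1 males and 53, 57 and 65 in control males. The SDs of both male groups lie below what counting error would give at such counts. Whether male mice were more alike for Mcm5 was not tested.

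**Figure D5:**
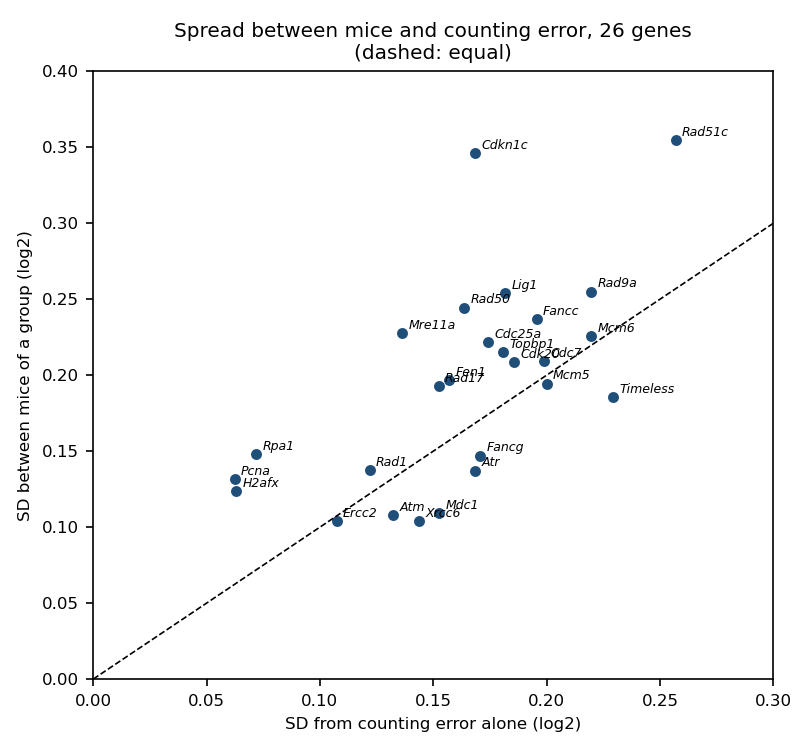
Each point is 1 of 26 of the 27 genes read in all mice, with the SD expected from counting error across and the SD between mice of a group up, both on the log2 scale and pooled over 4 groups. The dashed line marks equality. The 8 genes below it include Mdc1, Xrcc6, Atm and Timeless, and Cdkn1c and Rad51c have the widest spread.

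Other genes of the same pathways, taken from lists, gave 1 call over both sexes. Of 14 genes of p53 and the damage response on the panel 12 were tested, none was higher and only Cdkn1a was lower by that test. That gene, of the p53-induced inhibitor p21, averaged 95.2 ± 30.15 in mtOGG1 mice and 172 ± 29.03 in control mice (SD, n = 6 each), a log2 difference of -0.90 (adjusted p = 0.0231, limma). The call for Cdkn1a held in 18 of 25 alternatives, with adjusted p from 0.0128 to 0.195 (limma) and log2 values from -0.99 to -0.71. It was lost with no filter on low values (0.163), with no moderation of variances (0.195), with Slc17a6 as a covariate (0.0549), and when mtOGG1 female 3 (0.0535), control male 3 (0.0974), control male 2 (0.0653) or control female 1 (0.0797) was left out. Ccng2, Gadd45g and Gadd45a followed at -0.29, -0.28 and -0.27 without passing (adjusted p = 0.401 each, limma), and Trp53, the p53 gene, had a value of 0.05. The 12 tested genes of that list had 6 values above 0 and 6 below, with a median of 0.0128. Besides Trp53, those above 0 were Trp53bp2 at 0.21, Sesn2 at 0.18, Bbc3 at 0.17, Ddb2 at 0.12 and Bax at 0.07. Of 14 other repair genes 13 were tested and 0 passed in either direction, with a median of 0.0196, values from -0.16 for Parp2 to 0.19 for Prkdc, and values of -0.10 for Smc1a, -0.12 for Nbn and -0.01 for Ogg1. Of 6 further proliferation genes 3 were tested and 0 passed, with values of -0.16 for E2f1, -0.03 for Top2a and 0.02 for Myc. Kif2c was at the floor in all 12 mice, Birc5 was read in 2 and Rrm2 in 1. Mki67 was on the same list but not among the 6 genes of it found on the panel, and was not analysed here.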

How the data were processed

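Normalized nCounter signal values of 12 mouse hippocampi were used as the authors deposited them, which the labels' text on design credits to nCounter's own Advanced Analysis software. Each signal value above the floor was a whole count times a factor for its sample, from 0.82 to 1.27, within 0.02 for 100% of such values, and lower values were written as 20. A count model was not used, because the counts below the floor are not held in the table. The labels link the metabolic panel of the maker, and the table was used with the symbols it holds. Those symbols include markers of microglia, oligodendrocytes and lymphocytes. They were not matched to the gene list of the linked panel, so which panel was measured is not established here. The normalization genes are not given in the sources used here. Differences were taken on the log2(value + 1) scale, where the floor and the added 1 shrink those of low genes.

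Values were fitted with limma 3.58.1 in R 4.3.3 over 608 genes above 20 in at least 3 mice, with a mean for each of 4 groups, moderated variances with a trend, 5 contrasts, two-sided tests and Benjamini-Hochberg adjustment over all tested genes at 0.05. The fit was also run on simulated data with the same added spread for every gene. The outcome of that run is not given, and no result here rests on it. Counts were recovered by dividing by the factor. No label names a batch. The p-values set differences of group means against the moderated spread between these samples, pooled within the 4 groups. Counts of mice in a group differed beyond sampling noise (chi-square over its degrees of freedom at least 2.47). Same-numbered samples of different groups deviated together no more than others, with a median correlation of -0.0384 (from -0.336 to 0.556 over 18 pairs). The 36 other pairs had a median of 0.0184 (from -0.576 to 0.628). The numbers were not taken to pair the samples. Symbols were matched to RefSeq (37 by symbol and 1 by synonym), and figures were drawn with matplotlib 3.10.9.

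The genes, lists and tests were chosen with earlier results of these data known. The genes named are those past the threshold, of which there were none among the 38, the 10 with the smallest p over both sexes, the 5 smallest in each other contrast, the 4 most abundant tested genes of each role, genes read in 1 to 3 mice, and, outside the 38, the 4 of smallest p in each list with Ogg1, Trp53, Cdkn1a, Mki67 and Slc17a6. Counts cover all 38 genes, and 2 of them are not reported here by name or in figures. Other genes were named for completeness after their values were seen.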

Additional observations from a re-analysis of the deposited data

How the results depend on the processing

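None of the genes tested passed in any of the 5 contrasts under any of 25 alternatives. These tested 29 of the 38 genes, except that all 38 were tested with no filter on low values, 27 with those above the floor in every mouse and 23 with means of at least 50. The alternatives were pseudocounts of 5 and 20, 3 other filters on low values, 2 other scalings, 3 other variance models, Slc17a6 or Ttr as a covariate, the replicate block and 12 fits that each left out 1 mouse. Ttr as a covariate was chosen after seeing the data. Over the same alternatives the calls among all panel genes ranged from 0 to 12 over both sexes, 0 to 2 in females, 0 to 19 in males, 0 to 1 for the interaction and 2 to 6 for sex. The replicate block gave 0 calls among the 29 tested genes in each contrast, against 7 panel genes over both sexes, 0 in females, 8 in males, 0 for the interaction and 4 for sex, and left the Mcm5 sex value at 0.47 (limma, adjusted p = 0.142). That value lay between 0.35 and 0.54, with adjusted p from 0.0538, with Slc17a6 as a covariate, to 0.324. Of 1085 recomputed values of named genes 23 had the opposite sign, all in 7 genes over both sexes and all within 0.13 of 0. With Slc17a6 as a covariate they were Cdkn1c at -0.129, Cdc25a at -0.072, Fancg at -0.0773, Mre11a at 0.0482 and Mcm2 at -0.0398. With Ttr they were Cdkn1c at -0.0583, Fancg at -0.0341 and Mre11a at 0.0313. Scaling on 12 panel reference genes gave Xrcc6 at 0.0167 and Mre11a at 0.00705, and median centring gave Fancg at -0.00385. With 1 mouse left out the ranges were -0.0303 to 0.208 for Cdkn1c, -0.147 to 0.00902 for Cdk20, -0.0546 to 0.0118 for Xrcc6, -0.0384 to 0.0661 for Fancg and -0.101 to 0.0822 for Mre11a. Of 44 named values, 29 moved by over 1.5 times or changed sign without some mouse, 20 with Slc17a6 and 13 with Ttr as a covariate. With Slc17a6 the values over both sexes included -0.112 for Mcm5, 0.0612 for Rpa1, -0.0655 for Pcna and -0.359 for Blm. The causes were not tested. With values up to 25, or up to the highest of the lowest readable values, counted as floor, 118 of the 456 values were at the floor, against 110. Mcm6, Timeless, Mcm2, Rad9a, Rad51c and Blm had means under 50, and Mcm2 and Blm were not above the floor in every mouse, so that those filters gave no value for them.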
